A study of Macaca mulatta with 39 samples.

Results

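The mitochondrial respiratory chain and ATP synthase were followed at the level of messenger RNA in rhesus macaque embryonic stem cells (ESCs) and in fibroblasts related to them. The genes were taken by symbol from the platform's probe annotation: all names beginning with NDUF, UQCR, ATP5 or COX4 to COX8, the succinate dehydrogenase genes, and CYC1 and CYCS. Where a symbol had several probe sets, the brightest on average was used. This gave 65 genes of the 14132 named on the array, served by 108 probe sets. They comprised 24 complex I subunits, 6 complex I assembly factors, 3 genes of complex II, 7 of complex III, 10 of complex IV and 15 of complex V. CYCS, SDHD, COX4I1 and COX6A1 had no probe set assigned to them alone and were not analysed here. No nucleotide or protein sequences of these genes are shown.

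Complex I (NADH dehydrogenase) and complex II (succinate dehydrogenase) pass electrons to ubiquinone, complex III passes them to cytochrome c, and complex IV (cytochrome c oxidase) passes them to oxygen. Complexes I, III and IV pump protons across the inner mitochondrial membrane, and complex V (ATP synthase) uses the gradient to make ATP. Pluripotent cells are known for a large share of glycolysis in their energy supply, and fibroblasts for a larger share of oxidative phosphorylation. Some subunits have an isoform bound to particular tissues, such as the muscle forms COX7A1 and COX6A2.

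There were 2 ESC lines, C3106 (male) and C3806 (female). Teratoma fibroblasts had been grown out of tumours that these lines formed in immunodeficient mice, with 5 cultures from line 3106 (TA31 to TE31) and 3 from line 3806 (TA38 to TC38). Skin fibroblasts were from parents of the lines (M032, M088 and M106p1). No group received a treatment or carried an engineered allele according to the labels, and the labels give no ages. Each of the 13 sources had 3 single-colour arrays, which the labels call biological triplicates. The source was the unit in comparisons between classes, so those p-values measure the spread between fibroblast cultures. Each ESC line was a class of its own, so the spread between the ESC lines does not enter them. Tests among cultures and between the ESC lines used arrays.

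Before averaging, 3 arrays whose signals contradicted their labels were left out. On the array labelled C3806c, POU5F1 read 4.84 on the log2 scale and LUM, a fibroblast marker, 12.56, while the other 5 ESC arrays had POU5F1 between 12.67 and 13.17. MYH3, a muscle gene, read 11.61 on the array labelled M106p1f (6.83 and 6.75 on the other M106p1 arrays) and 7.03 on that labelled TB31c, against 12.25 and 12.12 on the other TB31 arrays. In the remaining 36 arrays all 6 pluripotency markers were higher in ESCs than in teratoma fibroblasts and all 6 fibroblast markers were lower. The sum of the 6 pluripotency markers was 72.08 and 72.09 in the ESC lines, 30.13 to 35.85 in the teratoma cultures and 28.65 to 29.12 in skin. Within that sum SOX2 read 12.54 and 12.41 in the ESC lines and from 4.78 (TD31) to 10.90 (TB38) in the teratoma cultures. Its skin signals were 4.33 to 4.55. On ESC array C3806a the 3′ actin probe set exceeded the 5′ one by 3.89 log2 units, a gap that widens as RNA degrades. The median gap was 0.74 in ESC arrays, 0.17 in teratoma arrays and 0.27 in skin arrays, and its part in the results was not tested beyond leaving out C3806a. In such bulk samples a smaller number of cells of a type and less RNA per cell cannot be told apart.

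Differences between ESCs and fibroblasts ran in both directions among the respiratory chain genes. A gene was called when its limma adjusted p over all 14132 genes was under 0.05. Against teratoma fibroblasts, 18 of the 65 genes were higher in ESCs, where 21.9% of all genes were. In the other direction 8 genes were lower, where 16.9% of all genes were. The median log2 difference was 0.13 over the 65 genes and 0.02 over all genes, and 44 of the 65 differences were positive (53.3% over all genes). COX7A1, which encodes the muscle isoform of a complex IV subunit, was the only one of the 65 called with a log2 difference of at least 1 in size, a rule that 14.5% of all genes passed. Differences within 0.5 log2 units of 0 made up 47 of the 65 (72.3%), where 65.1% of all genes were in that range.

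Against skin fibroblasts 20 genes were higher in ESCs (24.7% of all genes were) and 7 were lower (17.9% of all genes were). The median difference was 0.19 over the 65 genes and 0.03 over all genes. COX7A1 was again the only one of them to pass the rule that also asks for a log2 difference of 1, which 20% of all genes passed. Both comparisons share the ESC sources, so they are not independent. The genes called higher in both numbered 17 and those called lower in both numbered 6. The share of all genes called in both was not counted, so these numbers do not set the 65 apart. The ESC sources lay above every teratoma culture for 20 of the 65 genes and below every one for 10, against 24.7% and 20.3% of all genes. They lay above all skin cultures for 29 of the 65 and below all of them for 10, against 33.3% and 27% of all genes.

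**Figure D1:**
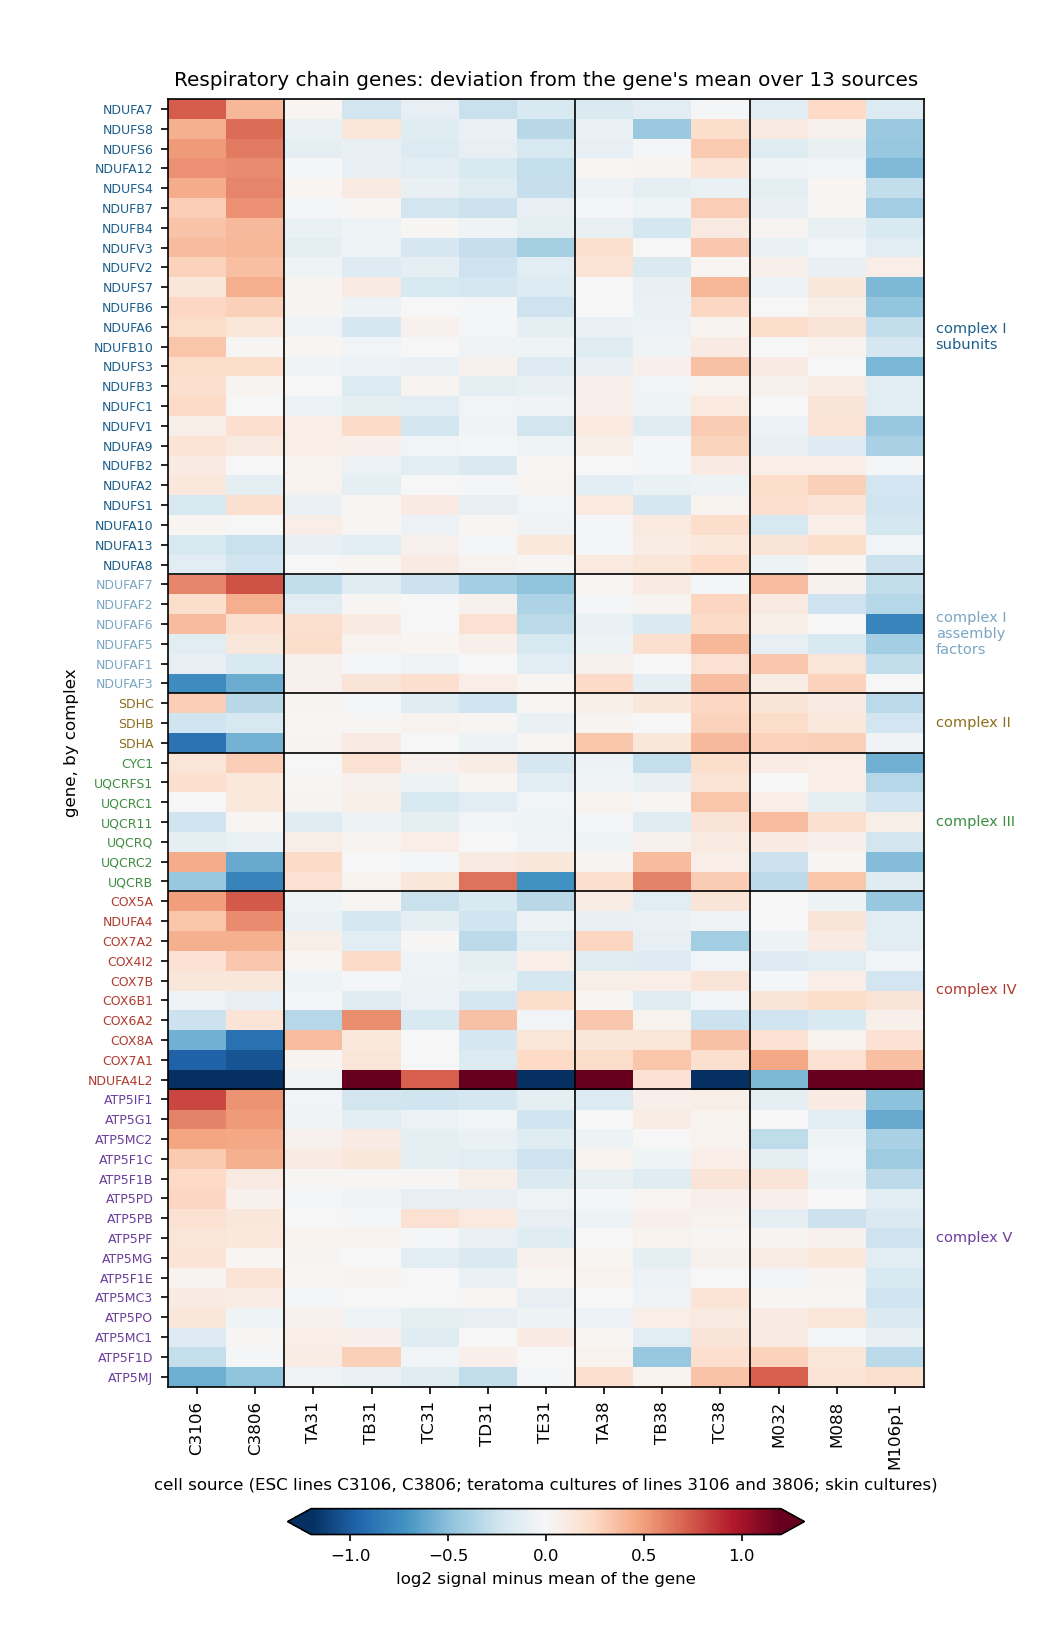
Colour gives each gene's log2 signal in a cell source minus the gene's mean over the 13 sources, with genes in rows grouped by complex and sources in columns; the scale is limited to 1.2 either way. The ESC columns are red for NDUFA7, NDUFS4, COX5A and ATP5IF1 and blue for SDHA, COX8A, COX7A1 and ATP5MJ, and the M106p1 column is the lowest for 34 of the 65 genes.

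Centring each array on the median of all genes moved the split against teratoma fibroblasts from 18 higher and 8 lower to 26 higher and 6 lower. Over all genes it gave 25.9% higher and 14.6% lower, and shifted their median from 0.02 to 0.10. The higher count thus stood further above the share of all genes after centring than before. Averaging all probe sets of a gene moved the split the other way, to 14 higher and 10 lower against teratoma. Over all genes it gave 22.1% higher and 17.2% lower, so the higher count against teratoma no longer stood above that share. Against skin this averaging gave 17 higher and 9 lower, where 24.7% and 18% of all genes were. Leaving out the ESC line C3806 took the higher count to 13 against both fibroblast kinds and the lower count against teratoma to 5. The shares of all genes fell too, to 14.2% higher against teratoma, 18.8% higher against skin and 11.6% lower against teratoma. Leaving out array C3806a gave 21 higher and 6 lower against teratoma, and 25 higher and 5 lower against skin, with 21.5%, 17.1%, 24.4% and 17.9% of all genes.

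Complex I, the largest group, held the largest number of genes higher in ESCs. Its share against teratoma fibroblasts did not exceed that of complex IV (4 of 10 genes, 40%). Of the 24 complex I subunits, 9 were higher in ESCs than in teratoma fibroblasts and 2 were lower, with a median difference of 0.22. These shares were 37.5% and 8.33%, where 21.9% and 16.9% of all genes were higher and lower. Accessory subunits of the peripheral arm, which surround the electron-carrying core, supplied 5 of the 9 from 8 measured genes, with a median of 0.50 and none lower. The core subunits supplied 2 of 6, and the accessory subunits of the membrane arm gave 2 higher and 2 lower of 10, shares near those of all genes. Against skin 10 subunits were higher and 1 was lower (24.7% and 17.9% of all genes were).

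NDUFA7, an accessory subunit of the peripheral arm encoded on rhesus chromosome 19 (assembly T2T-MMU8v2.0), had log2 signals of 11.14 in C3106 and 10.81 in C3806. The teratoma cultures ranged from 10.14 to 10.43 with a median of 10.26, and skin gave 10.27, 10.65 and 10.25. Both ESC lines thus lay above every fibroblast culture. The difference was 0.70 ± 0.11 (SE) against teratoma (1.62-fold, limma adjusted p = 0.000767) and 0.59 ± 0.13 against skin (adjusted p = 0.00435).

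NDUFS4, an accessory subunit whose loss causes complex I deficiency in people, had signals of 11.83 and 11.97 in the ESC lines. Teratoma cultures lay between 11.11 and 11.50 with a median of 11.31, and skin cultures at 11.27, 11.41 and 11.09. The groups did not overlap. The difference was 0.59 ± 0.11 against teratoma (limma adjusted p = 0.0015) and 0.64 ± 0.12 against skin (adjusted p = 0.00188).

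NDUFA12, which takes its place in complex I late in assembly, read 11.73 and 11.75 in the ESC lines, 10.90 to 11.35 in the teratoma cultures (median 11.13) and 11.14, 11.15 and 10.66 in skin. Again no fibroblast culture reached the ESC level. The difference was 0.59 ± 0.12 against teratoma (limma adjusted p = 0.00372) and 0.76 ± 0.14 against skin (adjusted p = 0.00179). NDUFB4, a subunit of the membrane arm, differed by 0.42 ± 0.09 (adjusted p = 0.00386) and 0.44 ± 0.10 (adjusted p = 0.00579) in the same comparisons. The calls of NDUFS4, NDUFA12 and NDUFB4 held in both comparisons under all 23 alternative settings of the analysis.

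NDUFS6, a zinc-binding accessory subunit, read 11.88 and 11.99 in ESCs, 11.17 to 11.68 in teratoma cultures (median 11.27) and 11.22, 11.28 and 10.91 in skin. The difference was 0.60 ± 0.12 against teratoma (limma adjusted p = 0.0025) and 0.80 ± 0.14 against skin (adjusted p = 0.000926). This result depended on the probe set. The other sets of NDUFS6 gave -0.40 and -0.52 against teratoma (adjusted p = 0.104 and 0.0221 in a fit of all probe sets) and -0.79 and -0.73 against skin (adjusted p = 0.0105 and 0.00745). With the mean of its 3 sets the sign turned in both comparisons, to -0.11 and -0.24.

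NDUFS8, a core subunit that carries iron-sulphur clusters, read 10.69 and 10.93 in ESCs, 9.81 to 10.47 in teratoma cultures (median 10.18) and 10.37, 10.31 and 9.81 in skin. The difference of 0.66 ± 0.19 against teratoma was called (limma adjusted p = 0.0192) but missed the threshold without C3806 (0.54, adjusted p = 0.157). Against skin it was 0.64 ± 0.22 (adjusted p = 0.0355), and it missed the threshold without C3106, C3806 or M106p1 (adjusted p from 0.0539 to 0.182). With arrays as units and the source as a random block, NDUFS8 was called in neither comparison (limma adjusted p = 0.0763 and 0.143), nor with the replicate letter as a further block (adjusted p = 0.155 and 0.378). Its second probe set gave a difference of 0.66 against teratoma as well. The names of these sets differ only in their suffix, so their agreement is not taken as separate support.

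Several other subunits were called by narrower margins. NDUFV2, the other core subunit that was called, differed by 0.38 ± 0.09 against teratoma (limma adjusted p = 0.00836), but its call against skin was lost when any of 10 sources was left out (C3106, C3806, M032, M088, M106p1, TA31, TB31, TC31, TC38 or TE31, adjusted p up to 0.183). NDUFV3 differed by 0.41 ± 0.10 and NDUFB7 by 0.45 ± 0.13 against teratoma (adjusted p = 0.0106 and 0.0227). Without C3806 the calls against teratoma of NDUFV2 (0.34, adjusted p = 0.0726), NDUFV3 (0.40, adjusted p = 0.0633) and NDUFB7 (0.32, adjusted p = 0.233) were lost. Without C3806 the call of NDUFB7 against skin was lost too (adjusted p = 0.0919), as was that of NDUFA7 against skin without C3106 (0.42, adjusted p = 0.0733). The second probe set went the other way for NDUFB7 (-0.28) and NDUFV2 (-0.24), neither of them called. NDUFA9, which binds NAD(P)H at the junction of the arms, was higher against skin by 0.34 ± 0.11 (adjusted p = 0.029), and lost the call without C3106, C3806 or M106p1 (adjusted p up to 0.111).

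The complex I subunits that were lower in ESCs belonged to the membrane arm. NDUFA8 differed by -0.29 ± 0.08 against teratoma (limma adjusted p = 0.0148), a call lost without C3806 (-0.24, adjusted p = 0.135). NDUFA13, also known as GRIM-19, differed by -0.25 ± 0.09 against teratoma (adjusted p = 0.0498) and by -0.33 ± 0.10 against skin (adjusted p = 0.0249). The former call was lost without any one of 10 sources (C3106, C3806, M032, M088, TA31, TB38, TC31, TC38, TD31 or TE31, adjusted p up to 0.247), and the latter without C3806, M032 or M088 (adjusted p up to 0.118). Without array C3806a the NDUFA13 differences were -0.17 (adjusted p = 0.169) and -0.25 (adjusted p = 0.0756). The core subunits NDUFS1, NDUFS3, NDUFS7 and NDUFV1 had differences of 0.02, 0.19, 0.28 and 0.10 against teratoma and were not called. A second, dim set of NDUFS1 gave -0.68 ± 0.10 against teratoma and -0.59 ± 0.12 against skin. Both were called in a limma fit of all probe sets (adjusted p = 0.000502 and 0.00262).

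Assembly factors of complex I did not move together. NDUFAF7, a mitochondrial methyltransferase, read 9.02 and 9.20 in ESCs, 7.95 to 8.53 in teratoma cultures (median 8.23) and 8.80, 8.48 and 8.14 in skin. It was higher in ESCs by 0.82 ± 0.15 against teratoma (1.76-fold, limma adjusted p = 0.00134) and by 0.64 ± 0.17 against skin (adjusted p = 0.0108, lost without C3806 at 0.073). The dimmer probe sets of NDUFAF7 gave 0.06 ± 0.10 and -0.09 ± 0.07 against teratoma and were not called. NDUFAF3, which acts early in assembly, read 9.43 and 9.59 in ESCs, 10.07 to 10.56 in teratoma cultures (median 10.30) and 10.28, 10.46 and 10.18 in skin. Here the ESCs lay below every fibroblast culture, by 0.81 log2 units against teratoma (difference -0.81 ± 0.12, adjusted p = 0.000414) and -0.80 ± 0.14 against skin (adjusted p = 0.000993). NDUFAF2, a late assembly chaperone, was called against skin only (0.49 ± 0.16, adjusted p = 0.0336), and lost that call without C3806, M088 or M106p1 (adjusted p up to 0.197). NDUFAF1, NDUFAF5 and NDUFAF6 had differences of -0.17, -0.10 and 0.28 against teratoma and were not called in either comparison.

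**Figure D2:**
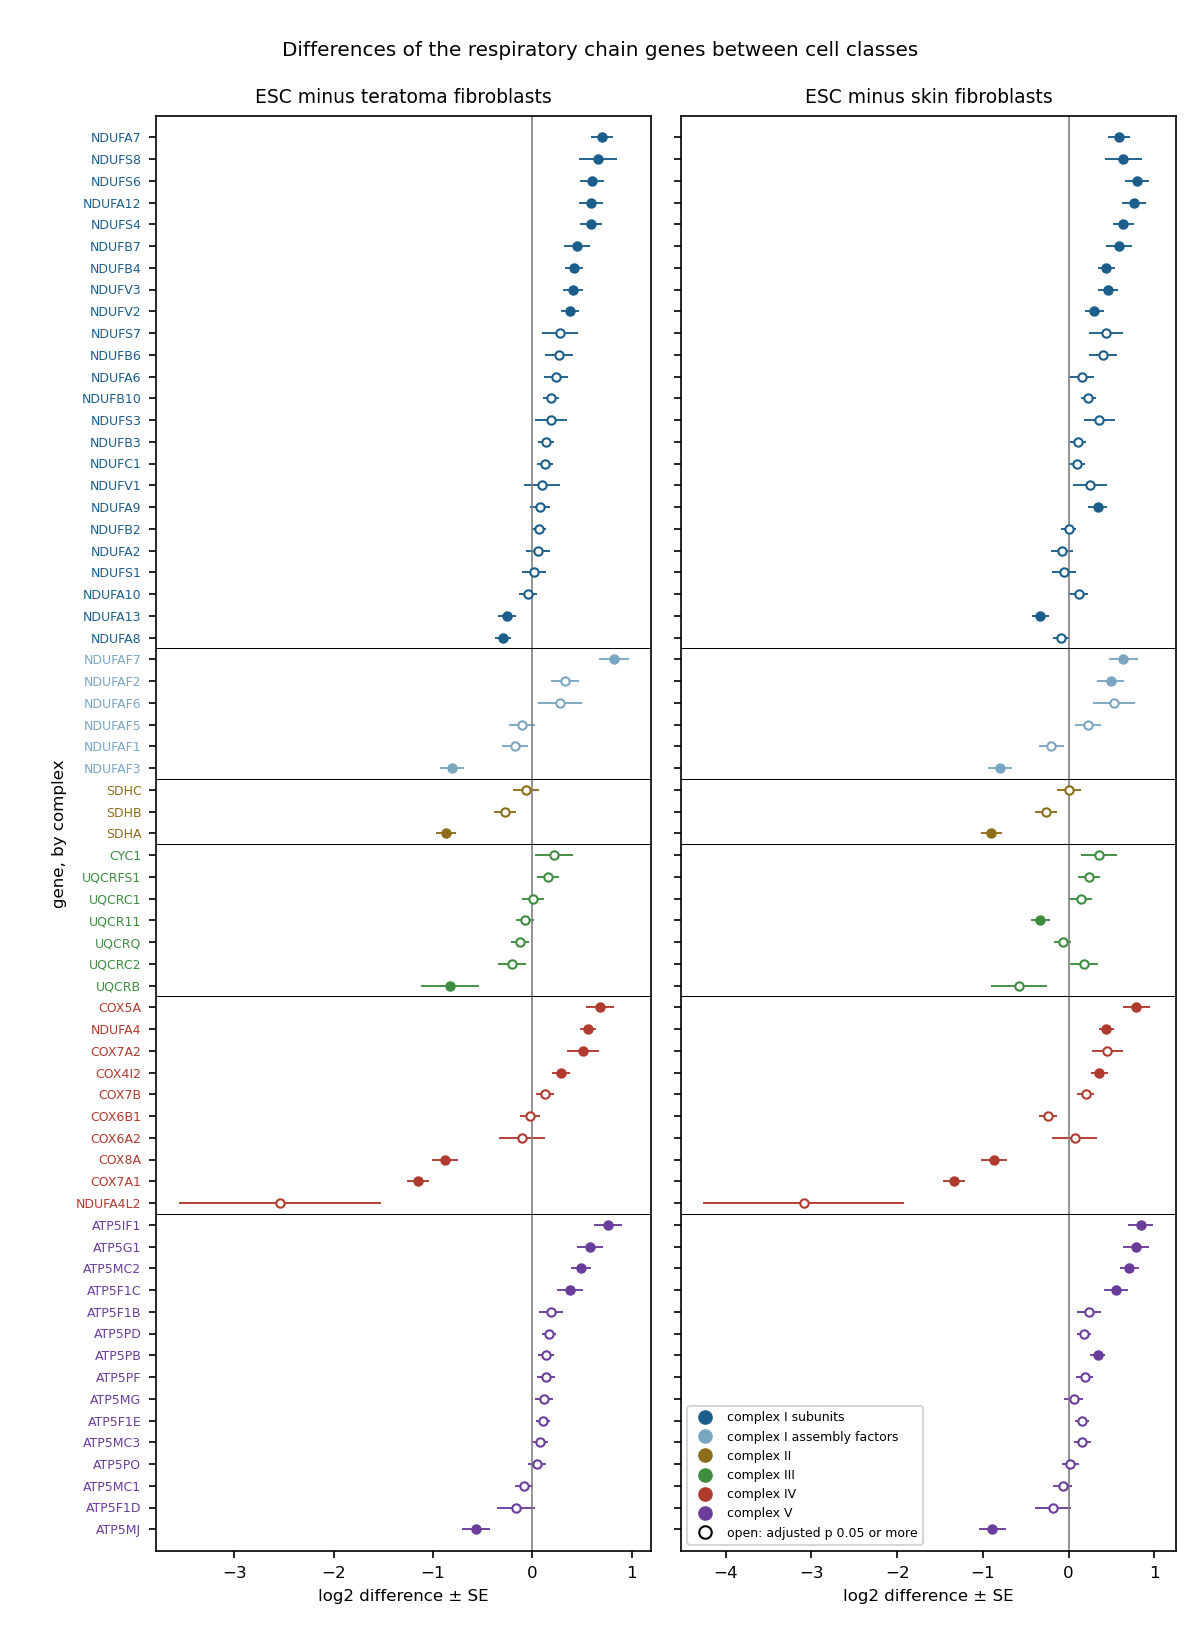
Points give the log2 difference of ESCs from teratoma fibroblasts (left) and from skin fibroblasts (right) with its standard error for the 65 genes, coloured by complex; filled points had a limma adjusted p under 0.05. NDUFA7, NDUFS4 and ATP5IF1 lie to the right of 0 and SDHA, COX8A and COX7A1 to the left in both panels, while the points of complex III mostly lie near 0.

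Complex II gave one of the most stable results. SDHA, the catalytic flavoprotein that oxidises succinate, read 9.72 in C3106 and 10.04 in C3806. The teratoma cultures ranged from 10.54 to 10.99 with a median of 10.67, and skin gave 10.88, 10.89 and 10.56. Both ESC lines were below all 11 fibroblast cultures. The difference was -0.87 ± 0.10 against teratoma (1.83-fold lower, limma adjusted p = 8.28e-05) and -0.90 ± 0.12 against skin (1.86-fold lower, adjusted p = 0.000165). It was -0.90 between the cells of line 3106 and -0.85 between those of line 3806, and between -1.03 and -0.71 against teratoma when single sources were left out.

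The other complex II genes were not called in either comparison. SDHB, the iron-sulphur subunit, read 9.62 and 9.67 in ESCs and 9.78 to 10.14 in teratoma cultures. Both ESC lines thus lay below every teratoma culture, with a difference of -0.27 ± 0.11 (limma adjusted p = 0.0934). Against skin SDHB differed by -0.26 ± 0.13 (adjusted p = 0.153), and the groups overlapped. SDHC, a membrane anchor, read 10.08 in C3106 but 9.45 in C3806, and its difference against teratoma was -0.06 ± 0.13. The low level in C3806 came from 1 array, since C3806a read 9.01 and C3806b 9.88.

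In complex III none of the 7 genes was higher in ESCs and 1 was lower in each comparison. With 7 genes these counts do not set the complex apart from all genes, of which 21.9% and 24.7% were higher and 16.9% and 17.9% lower. CYC1, the cytochrome c1 haem protein, differed by 0.22 ± 0.19 against teratoma and 0.35 ± 0.21 against skin. UQCRFS1, the Rieske iron-sulphur protein, differed by 0.16 ± 0.11 and 0.24 ± 0.13, and neither gene was called. UQCRC1, a core protein, differed by 0.01 ± 0.11 against teratoma, and UQCRQ by -0.12 ± 0.09.

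UQCRB, which lies near the ubiquinone site, read 7.75 and 7.41 in ESCs, 7.48 to 8.86 in teratoma cultures (median 8.40) and 7.89, 8.54 and 8.06 in skin. The difference against teratoma was -0.83 ± 0.29 (limma adjusted p = 0.0446). The groups overlapped because culture TE31 read 7.48. The call was lost when any one of 9 sources was left out (C3106, C3806, M106p1, TA31, TA38, TB31, TB38, TC31 or TC38, adjusted p from 0.0556 to 0.263) and without array C3806a (-0.69, adjusted p = 0.0891). The other 3 probe sets of UQCRB gave 0.02, 0.14 and -0.21, none of them called. UQCR11 was lower against skin by -0.33 ± 0.11 (adjusted p = 0.0336), lost without C3106 (-0.20, adjusted p = 0.289), M032 (adjusted p = 0.101), M088 (adjusted p = 0.0595) or array C3806a (-0.22, adjusted p = 0.132). Its second probe set gave 0.05 against skin, which was not called. UQCRC2, a core protein, stood apart between the ESC lines. Its signals were 10.65, 11.21 and 10.28 on the C3106 arrays and 8.84 and 10.48 on the C3806 arrays, so the gap rested on C3806a.

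Complex IV held the largest called difference, that of COX7A1, and its isoforms went different ways. Of its 10 genes, 4 were higher and 2 lower in ESCs than in teratoma fibroblasts (21.9% and 16.9% of all genes were). Against skin 3 were higher and 2 lower (24.7% and 17.9% of all genes were). COX7A1, the heart and skeletal muscle isoform of subunit 7A encoded on rhesus chromosome 19, read 9.51 in C3106 and 9.45 in C3806. The teratoma cultures lay between 10.32 (TD31) and 10.81 (TB38) with a median of 10.65, and skin read 10.95, 10.66 and 10.84. Every fibroblast culture was above both ESC lines. The difference was -1.15 ± 0.11 against teratoma (2.23-fold lower in ESCs, limma adjusted p = 2.24e-05) and -1.34 ± 0.13 against skin (2.53-fold lower, adjusted p = 2.17e-05).

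COX7A2, the isoform found in most tissues, went the other way. It read 11.04 in both ESC lines, 10.20 to 10.88 in teratoma cultures (median 10.50) and 10.56, 10.72 and 10.48 in skin, with no overlap. The difference was 0.51 ± 0.16 against teratoma (limma adjusted p = 0.0263) and 0.45 ± 0.18 against skin, where it was not called (adjusted p = 0.0714). The call against teratoma was lost without C3106 (0.51, adjusted p = 0.0973) and without C3806 (0.51, adjusted p = 0.108). Its second probe set gave -0.05 ± 0.18. Levels of the isoforms are not compared with each other here, because probe sets differ in brightness.

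NDUFA4, once counted in complex I and now placed in complex IV, read 12.18 and 12.41 in ESCs, 11.60 to 11.80 in teratoma cultures (median 11.75) and 11.85, 12.00 and 11.72 in skin. Its ESC signals were above all cultures, by 0.56 ± 0.08 against teratoma (1.48-fold, limma adjusted p = 0.000404) and 0.44 ± 0.09 against skin (adjusted p = 0.00369, lost without C3806 at 0.0608). NDUFA4L2, its paralogue and a known target of hypoxia-inducible factor, read 6.71 and 6.60 in ESCs and 7.15 to 10.80 in teratoma cultures (median 9.42). Skin read 8.43 in M032, 10.60 in M088 and 10.21 in M106p1. All 11 fibroblast cultures were above the ESCs, yet the spread among cultures was so wide that the differences of -2.54 ± 1.02 and -3.09 ± 1.17 were not called (limma adjusted p = 0.0747 and 0.0565).

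**Figure D3:**
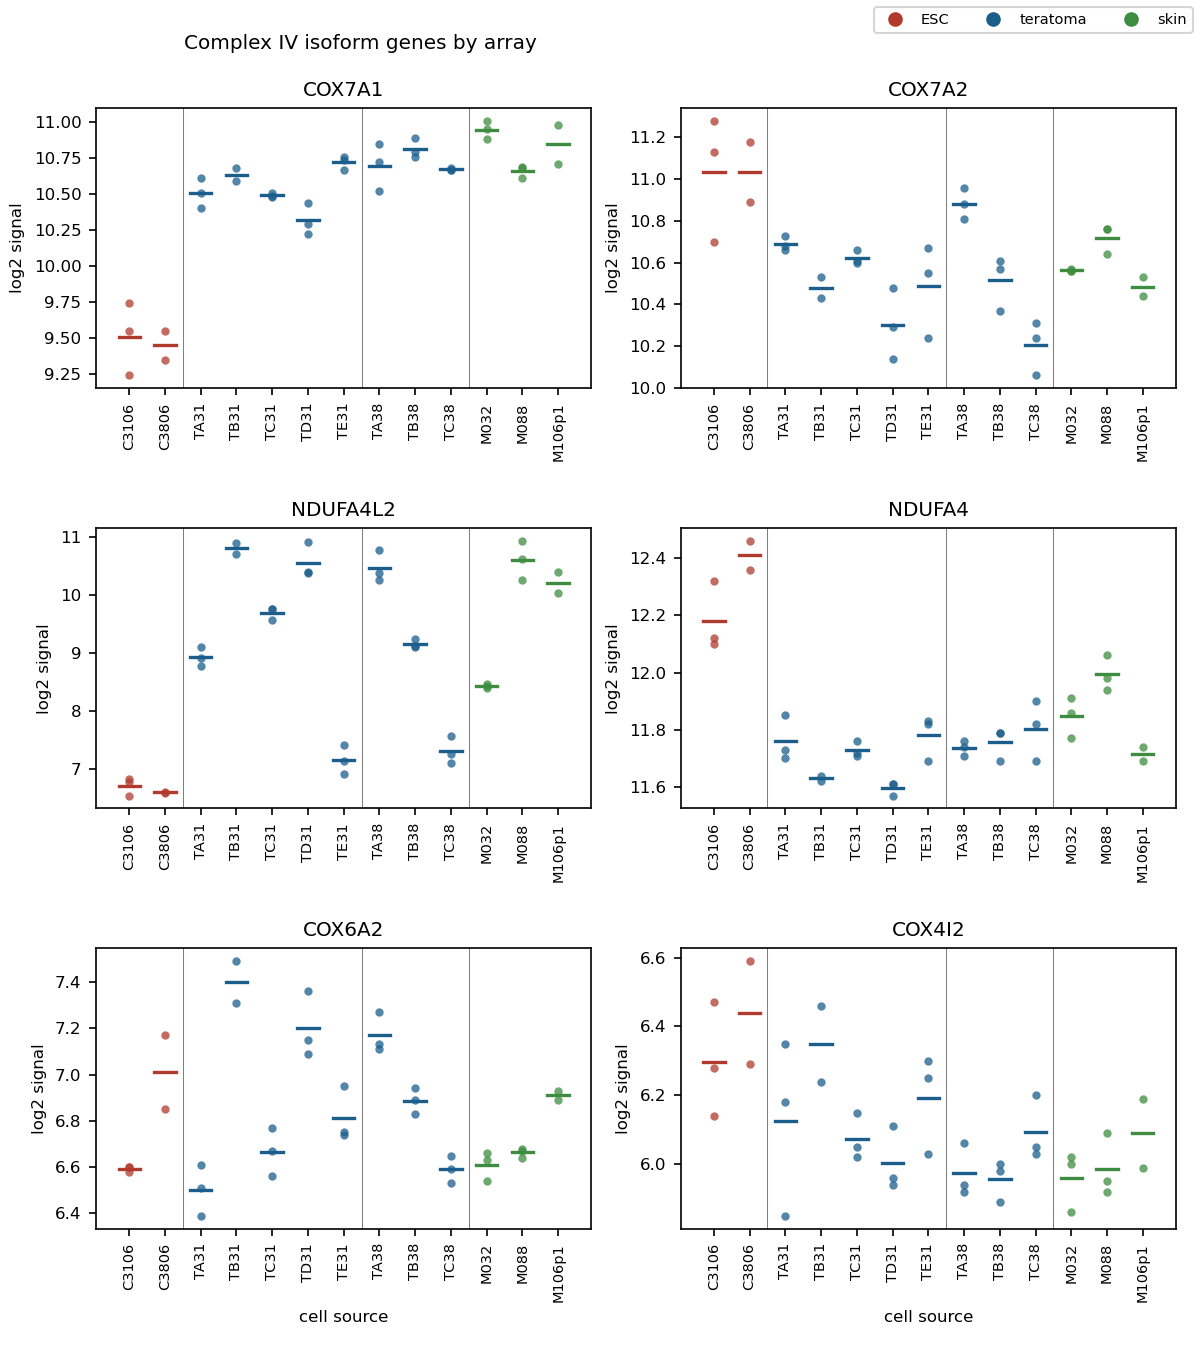
Each point is 1 array's log2 signal for a complex IV isoform gene, by cell source, and bars are source means; the 3 arrays left out are not drawn, and each panel has its own axis. The source means of COX7A1 are lower and those of COX7A2 and NDUFA4 higher in both ESC lines than in all fibroblasts, and NDUFA4L2 runs from 7.15 in TE31 to 10.80 in TB31 among the teratoma cultures.

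COX5A, a subunit present in all tissues, read 12.08 and 12.31 in ESCs, 11.24 to 11.73 in teratoma cultures (median 11.48) and 11.57, 11.51 and 11.12 in skin. The difference was 0.68 ± 0.14 against teratoma (1.6-fold, limma adjusted p = 0.00279) and 0.79 ± 0.16 against skin (adjusted p = 0.00231). Its dimmer probe sets gave -0.06 ± 0.39 and -0.08 ± 0.69 against teratoma. COX8A, the ubiquitous form of subunit 8, read 11.10 and 10.78 in ESCs, 11.46 to 12.04 in teratoma cultures (median 11.81) and 11.86, 11.72 and 11.85 in skin. It was lower in ESCs than in every fibroblast culture, by -0.88 ± 0.13 (adjusted p = 0.000384) and -0.87 ± 0.15 (adjusted p = 0.000899).

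The remaining complex IV genes differed less. COX4I2, the isoform of subunit 4 known from lung and from hypoxia, was a dim probe set, at 6.30 and 6.44 in ESCs, 5.96 to 6.35 in teratoma cultures (median 6.08) and 5.96, 5.98 and 6.09 in skin. The ESCs overlapped the teratoma cultures and lay above the skin cultures. It differed by 0.29 ± 0.09 against teratoma and 0.36 ± 0.10 against skin (limma adjusted p = 0.0272 and 0.018). Both calls were lost without C3806 (adjusted p = 0.23 and 0.127) and without array C3806a (adjusted p = 0.0879 and 0.051). The call against teratoma was also lost without TB38 (adjusted p = 0.0506) and that against skin without M032 (adjusted p = 0.0508). COX6A2, the muscle isoform of subunit 6A, differed by -0.10 ± 0.23 against teratoma and was not called. COX7B and COX6B1 differed by 0.13 and -0.02 and were not called.

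In complex V, 4 of 15 genes were higher and 1 was lower in ESCs than in teratoma fibroblasts, and 5 were higher and 1 lower against skin. The higher shares, 26.7% and 33.3%, stood near the 21.9% and 24.7% of all genes. ATP5IF1, the inhibitor that stops the enzyme from running backwards, read 10.96 and 10.70 in ESCs, 9.92 to 10.23 in teratoma cultures (median 10.01) and 10.05, 10.26 and 9.67 in skin. The ESC lines lay above all 11 cultures. The difference was 0.76 ± 0.14 against teratoma (1.69-fold, limma adjusted p = 0.00132) and 0.84 ± 0.15 against skin (1.79-fold, adjusted p = 0.00156). Its second probe set gave 0.91 ± 0.11 and 0.94 in the same comparisons.

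Genes of the membrane ring of c subunits, which turns as protons pass, differed among themselves. ATP5MC2 read 9.13 and 9.12 in ESCs, 8.51 to 8.76 in teratoma cultures (median 8.63) and 8.35, 8.61 and 8.27 in skin, again without overlap. It was higher by 0.49 ± 0.10 (limma adjusted p = 0.00302) and 0.71 ± 0.11 (adjusted p = 0.000637). ATP5MC1 and ATP5MC3 differed by -0.08 ± 0.09 and 0.08 ± 0.08 against teratoma and were not called. The annotation also lists ATP5G1, an older name of ATP5MC1, as a gene of its own, with identifiers that have no match in the RefSeq table used. That entry read 11.80 and 11.71 in ESCs and 10.96 to 11.29 in teratoma cultures (0.58 ± 0.13, adjusted p = 0.00559), and its second probe set was lower in ESCs (-0.49 ± 0.11, adjusted p = 0.00409 in the fit of all probe sets), so its identity is uncertain.

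ATP5MJ, a small subunit of the membrane part, read 10.15 and 10.25 in ESCs, 10.44 to 11.07 in teratoma cultures (median 10.70) and 11.45, 10.90 and 10.92 in skin. Both ESC lines were below all cultures, by -0.57 ± 0.14 (limma adjusted p = 0.0098, lost without C3106 at 0.0661) and -0.89 ± 0.16 (adjusted p = 0.00156). ATP5F1C, the rotating gamma subunit, differed by 0.38 ± 0.13 against teratoma (adjusted p = 0.0342) and 0.55 ± 0.14 against skin (adjusted p = 0.0108). The former call was lost without C3106, C3806, TA38, TB38, TC31 or TD31 (adjusted p up to 0.198), and the latter without C3806 (0.063). ATP5PB, of the peripheral stalk, was higher against skin by 0.34 ± 0.09 (adjusted p = 0.0151), and the call was lost without C3106 (0.062), without array C3806a (0.14, adjusted p = 0.274) and with the source as a random block (0.125). The catalytic beta subunit ATP5F1B differed by 0.19 ± 0.12 against teratoma, ATP5F1D by -0.16 ± 0.19 and the stalk subunit ATP5PO by 0.05 ± 0.09, and none of these was called.

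Which probe set stands for a gene mattered for many of these genes. Of the 65 genes, 31 had more than 1 probe set. Among the 26 genes called against teratoma, 14 had another set, and the brightest of the others had the same sign for 7 (NDUFB4, NDUFS8 and ATP5IF1 called) and the opposite sign for 7 (only ATP5G1 called). Against skin the sign was the same for 8 of 13 and opposite for 5, with NDUFS6 and ATP5G1 called. With all 24956 probe sets as features of their own, 37 of the 108 sets were called against teratoma, 23 higher and 14 lower, which is 34.3% where 38.9% of all probe sets were. This count was made after the data were seen.

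Some unused sets had far larger differences than the set in use, and they were picked out after their values were seen. For NDUFA6, an accessory subunit of complex I, the set in use read 11.59 and 11.51 in ESCs and 11.17 to 11.42 in teratoma cultures (0.24 ± 0.12, limma adjusted p = 0.161). A dimmer NDUFA6 set read 5.69 and 5.49 in ESCs and 8.68 to 9.10 in teratoma cultures, a difference of -3.30 ± 0.17 (adjusted p = 2.35e-07), and another differed by -1.66 ± 0.21 (adjusted p = 0.00017). For ATP5F1E, the epsilon subunit of complex V, the set in use differed by 0.11 ± 0.07. Its second set read 5.25 and 5.33 in ESCs and 7.14 to 9.80 in teratoma cultures (-3.34 ± 0.47, adjusted p = 3e-04). In the other direction, the second sets of NDUFS7 (1.45 ± 0.29, adjusted p = 0.00274), NDUFB6 (1.16 ± 0.12, adjusted p = 4.63e-05) and NDUFB4 (1.07 ± 0.09, adjusted p = 9.76e-06) exceeded the differences of 0.28, 0.27 and 0.42 of the sets in use.

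**Figure D4:**
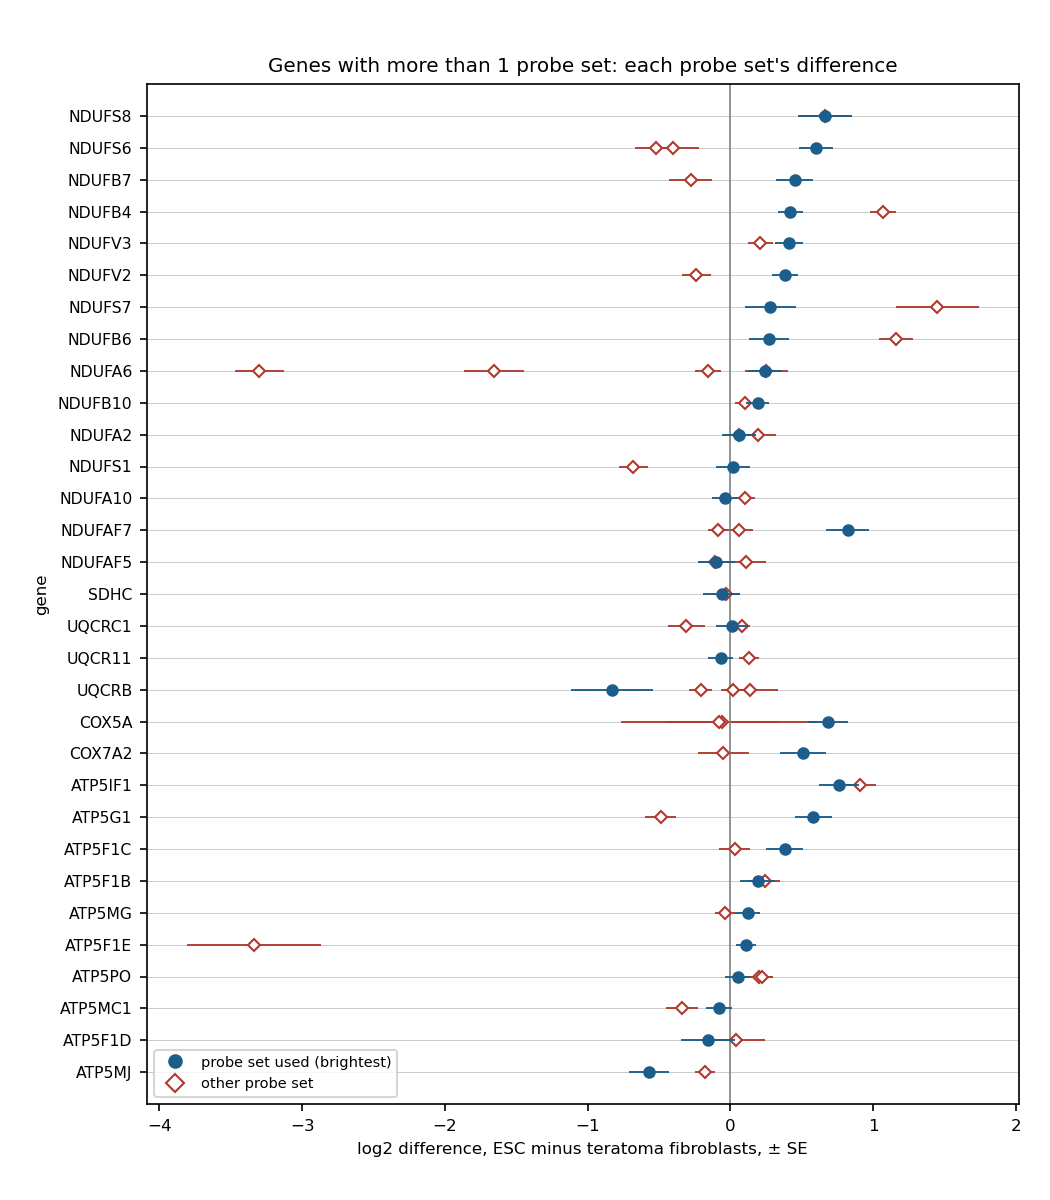
For the 31 genes with more than 1 probe set, points give each set's log2 difference between ESCs and teratoma fibroblasts with its standard error; filled circles are the brightest set, which stands for the gene, and open diamonds the others. The sets of NDUFS8 and ATP5IF1 lie together, those of NDUFS6 and ATP5G1 lie on both sides of 0, and single sets of NDUFA6 and ATP5F1E lie below -3.

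Between teratoma and skin fibroblasts, none of the 65 was called in limma in either direction, where 2.14% of all genes were higher and 1.82% lower in teratoma fibroblasts. At an unadjusted p under 0.05 there were 9 of the 65, and 3236 of all 14132 genes. The lowest adjusted p among the 65 was 0.091, for UQCRC2 (0.38). Differences within 0.5 log2 units of 0 made up 64 of the 65, and 86.3% of all genes. With the arrays as units and the source as a random block, 2 genes were higher and 2 lower, where 10.3% and 7.45% of all genes were. Without M088 there was 1 higher gene, and without TE31 there was 1 lower gene.

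No gene of the set was called between teratoma fibroblasts of the lines 3806 and 3106, where 0.0495% of all genes were. At an unadjusted p under 0.05 there were 5 of the set, and 635 of all 14132 genes. Nor was any of the set called for a difference between the lines in the step from ESCs to teratoma fibroblasts, where 0.0566% of all genes were. Here 2 of the set had an unadjusted p under 0.05, as did 747 of all genes. The 2 were UQCRC2 (-1.13 ± 0.27, limma adjusted p = 0.322) and SDHC (-0.85 ± 0.25, adjusted p = 0.547). Between the ESC lines, tested over arrays, 6 genes differed (8.14% of all genes did): UQCRC2 (-1.05), SDHC (-0.63), COX6A2 (0.42), NDUFS1 (0.40), NDUFB10 (-0.33) and SDHA (0.32), given as 3806 minus 3106. Without array C3806a only NDUFS1, a core subunit of complex I, was called (0.45, adjusted p = 0.0303). The second, dim set of NDUFS1 went the other way, at 5.10 in C3106 and 4.89 in C3806 with C3806a included.

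Teratoma cultures of the same line differed from one another in 26 of the 65 genes by an F test over arrays in limma (47.5% of all genes did), a test that measures only the spread between arrays of a source. NDUFA4L2 had the widest range over the 8 cultures, 3.65 log2 units, followed by UQCRB (1.38) and COX6A2 (0.90), and the median range over the set was 0.38. NDUFA4L2 read 10.80 in TB31, 10.56 in TD31 and 10.46 in TA38. It read 9.69 in TC31, 9.15 in TB38 and 8.93 in TA31, and 7.31 in TC38 and 7.15 in TE31. COX6A2 read 7.40 in TB31, 7.20 in TD31 and 7.17 in TA38, and between 6.50 and 6.89 in the other cultures.

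Skeletal muscle genes also varied among these cultures. The sum of 7 skeletal muscle markers was 66.89 in TB31, 65.00 in TD31, 56.87 in TA38 and 55.18 in TB38, and between 39.64 and 47.59 in the other teratoma cultures. In ESCs it was 42.53 and 42.98, and in skin 39.53 to 43.83. The sum hides opposite directions, as ACTC1 read 11.68 and 11.59 in ESCs and 7.42 to 8.07 in skin. It was the only 1 of the 7 markers that was higher in ESCs than in skin on average. MYH3, embryonic myosin heavy chain, read 12.18 in TB31, 11.80 in TD31 and 10.22 in TA38, while CKM, the muscle creatine kinase, stayed between 5.68 and 5.90 in all fibroblast cultures. COX7A1, the muscle isoform that was lower in ESCs, read 10.63 in TB31 and 10.32 in TD31, the latter being the lowest of the teratoma cultures. The part of muscle cells in these values was not tested. Without TB31 and TD31, 17 genes were higher and 6 lower in ESCs than in the remaining teratoma cultures. In that setting 19.9% of all genes were higher and 15.7% lower. The calls of COX7A2 (0.47, adjusted p = 0.058), NDUFA13 (-0.27, adjusted p = 0.0631) and UQCRB (-0.74, adjusted p = 0.0657) were lost there.

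The skin culture M106p1 stood apart. It had the lowest signal of the 3 skin cultures for 56 of the 65 genes, or 86.2%, while 37% of all genes were lowest there. The median difference from the other skin cultures was -0.26 over the 65 genes and 0.01 over all genes. With arrays centred on their median, the share was 64.6% against 25.2% of all genes. Both arrays kept for this culture showed it, with 52 and 53 genes below the other skin cultures. The array labelled M106p1f had 41, but its signals contradicted its label, so that count does not describe this culture. CYC1 read 10.64 in M106p1 against 11.31 and 11.30, NDUFS3 read 10.32 against 10.97 and 10.87, and NDUFAF6 read 8.03 against 8.89 and 8.81. The F test among skin cultures called 39 of the 65 genes, where 35.6% of all genes were called. After centring it called 23 of the 65, where 43.3% of all genes were called, so the count lay above the share of all genes before centring and below it after. Without M106p1, 16 genes were higher and 10 lower in ESCs than in skin, where 22.5% and 17.3% of all genes were.

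Genes that serve the respiratory chain were set beside its subunits. Of 28 further assembly factors of the chain, 7 were higher and 4 lower in ESCs than in teratoma fibroblasts, with a median of 0.22. These shares, 25% and 14.3%, were near the 21.9% and 16.9% of all genes. TTC19, a factor for complex III, differed by 1.00 ± 0.16 (limma adjusted p = 0.000826), UQCC3, another complex III factor, by 0.81 ± 0.19 (adjusted p = 0.00662), and COA1, a factor for complexes I and IV, by 0.79 ± 0.20 (adjusted p = 0.0098). SURF1, needed for complex IV, was lower by 0.75 units (-0.75 ± 0.16, adjusted p = 0.0035). SDHAF4, a factor for SDHA, and COX19, which serves copper delivery to complex IV, were lower too (-0.61 and -0.45, adjusted p = 0.0207 and 0.00908). Of the 28 factors, 12 were higher and 3 lower against skin (42.9% and 10.7%), where 24.7% and 17.9% of all genes were.

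Of 15 regulators of mitochondrial transcription and biogenesis, 9 were higher in ESCs than in teratoma fibroblasts and none was lower, with a median of 0.28 (21.9% of all genes were higher and 16.9% lower). TWNK, the mitochondrial DNA helicase, differed by 1.29 ± 0.11 (limma adjusted p = 1.29e-05), TFAM, which packs and transcribes mitochondrial DNA, by 1.24 ± 0.16 (adjusted p = 0.000174), and LRPPRC, which stabilises mitochondrial messenger RNA, by 1.02 ± 0.14 (adjusted p = 0.000223). The same count, 9 of 15, was higher against skin, where 24.7% of all genes were. PPARGC1A, a coactivator of biogenesis, differed by -0.39 ± 0.40 against teratoma and was not called.

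The tricarboxylic acid cycle, which feeds electrons to complexes I and II, gave 4 higher and 2 lower of 9 genes, where 21.9% and 16.9% of all genes were. CS (citrate synthase) differed by 1.40 ± 0.09 (limma adjusted p = 1.74e-06) and IDH3B, a subunit of isocitrate dehydrogenase, by 1.13 ± 0.17 (adjusted p = 0.000403), while SUCLG1, a subunit of succinyl-CoA ligase, was lower (-1.07 ± 0.09, adjusted p = 8.72e-06). Of 9 carriers, porins and uncoupling proteins, 1 was higher and 1 lower, shares of 11.1% each. These were adenine nucleotide translocases, SLC25A5 (0.41 ± 0.11, adjusted p = 0.0142) and the muscle and heart form SLC25A4 (-0.96 ± 0.07, adjusted p = 4.21e-06).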

How the data were processed

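Messenger RNA of 39 samples was measured on single-colour oligonucleotide arrays. The deposited values are log2 signals, made with GCOS and RMA per the submitters' processing notes, with no versions given there. The table held 52865 probe sets, and array medians ran from 6.25 to 6.48. The number of arrays and sources limits the precision. Gene names came from the platform annotation: 24969 probe sets had 1 gene, 361 several, and 24956 were used after controls were removed. For 64 of the 65 genes the entry was found in RefSeq (T2T-MMU8v2.0).

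Arrays C3806c, M106p1f and TB31c were left out, and the remaining 36 were averaged by source. The 13 means were fitted in limma 3.58.1 (R 4.3.3) with 5 classes (each ESC line, teratoma fibroblasts by line, and skin) and 8 residual degrees of freedom, with both teratoma classes weighted equally. Each ESC line was its own class, so the ESCs were assumed to vary like the fibroblast cultures. P-values were adjusted over all genes by Benjamini-Hochberg. Tests among cultures and between ESC lines used the arrays (23 residual degrees of freedom).

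Members and lists were chosen with earlier results of these data known. Genes are named by rule: in each complex up to 4 called genes with the largest difference each way, isoforms and their partners, SDH genes and CYC1, genes whose probe sets disagree, the 3 with the widest range over teratoma cultures, and up to 3 called genes of the other lists. Others named were chosen after their values were seen. Alternatives concerned the arrays left out, classes, array-level fits, probe sets, dim genes, normalization and single sources. The script was tested on simulated data. Promoter motifs and protein comparisons that had been planned were not run.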

Additional observations from a re-analysis of the deposited data

Results flagged for a closer look

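In 8 of the 65 genes, 1 of the 8 teratoma cultures lay further from the rest than the limit for a group of that size allows, judged by the gap to the nearest culture over the whole range. Chance alone would give this in about 1 group in 20 if the groups were independent. The 65 genes were read in the same cultures, of both lines, and the share of all genes flagged was not counted. That rate is therefore no yardstick for these 8 genes. Culture TC38 was the high one for 6 of them: NDUFS6 (11.68), NDUFA9 (11.42) and NDUFS3 (11.22) of complex I, SDHB (10.14) of complex II, UQCR11 (11.53) of complex III and ATP5MC3 (12.79) of complex V. The median deviation of the 65 genes from their means was 0.16 in TC38, where that of all genes was 0.04. Culture TB38 was low for ATP5F1D (10.63), the delta subunit of complex V, and TE31 was low for UQCRB (7.48), where the next culture read 8.25.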

How the results depend on the processing

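Of the 26 calls against teratoma fibroblasts 12 held under all 23 alternative settings and 14 were lost under at least 1. Of the 27 calls against skin 10 held and 17 were lost under at least 1. NDUFS6 changed sign with the mean of all its probe sets (-0.11 against teratoma, -0.24 against skin), because its sets disagree. Asking for a log2 difference of 1 left 0 higher and 1 lower in each comparison with ESCs. Of all genes, 6.28% and 8.18% passed against teratoma, and 10.2% and 9.77% against skin. With all 39 arrays the lower count against teratoma was 4, and 9 and 15 genes differed among teratoma and among skin cultures. Leaving out single sources gave 13 to 20 higher and 5 to 8 lower against teratoma (14.2% to 23.3% and 11.6% to 17.6% of all genes). Against skin that gave 13 to 21 higher and 5 to 10 lower (18.8% to 26% and 13.9% to 19% of all genes). Between teratoma and skin, leaving out single sources gave 0 to 1 each way (0.509% to 6.14% and 0.495% to 4.03% of all genes). There the array fit with the source as a random block gave 2 and 2 (10.3% and 7.45% of all genes), and centring gave 1 lower (2.55%). After centring 23 genes differed among skin cultures (43.3% of all genes), and without C3806a 1 differed between the ESC lines (5.24% of all genes). The cause of these shifts was not tested. With the replicate letter as a block as well, 17 were higher and 10 lower against teratoma, 18 and 10 against skin, and 2 and 2 between teratoma and skin. The shares of all genes there were 23.5% and 20%, 25.2% and 20.4%, and 9.32% and 7.36%. That replicate block also ended the calls of COX4I2 and NDUFV3 in both comparisons (limma adjusted p = 0.0922 and 0.106 against teratoma, 0.0841 and 0.149 against skin) and of UQCR11 against skin (0.095). The letters are not stated to pair samples. Removing an ESC line leaves 1 ESC source, which was assumed to vary like the other groups. Background was not measured per probe set, which limits low signals such as that of COX4I2.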
